A study of Mus musculus with 23 samples.

Results

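The 10 genes described here encode amino acid transporters: *Slc7a11*, *Slc7a5*, *Slc7a6*, *Slc3a2*, *Slc7a1*, *Slc1a4*, *Slc1a5*, *Slc38a1*, *Slc38a2* and *Slc6a19*. They were taken by name from a list that was drawn up with earlier results of these data known, although the list itself sets no limit on expression, and all 10 were found among the 22350 genes of the RNA-seq reference and in both Ribo-seq references. Their mRNA was measured by RNA-seq in organoids, which are three-dimensional epithelial cultures grown from small intestinal crypts. Ribosome footprints, the short mRNA pieces that a translating ribosome shields from nuclease, were measured by Ribo-seq in organoids and in the intestine of mice. All samples were of the C57BL/6 strain.

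WT organoids (2 lines, each sequenced as 2 technical libraries) carried VillinCre.ERT2.RPL22.HA, that is, a Cre expressed throughout the intestinal epithelium and an HA tag on the ribosomal protein RPL22. Rptor fl/fl organoids for RNA-seq (2 lines, 2 technical libraries each) were labelled VillinCre.ERT2.Rptor.fl/fl, and those for Ribo-seq (3 lines) VillinCre.ERT2.Rptor.fl/fl.RPL22.HA. Stem cell enriched (SCe) organoids had the genotype of the WT organoids and were kept with 10 µM CHIR99021, a GSK3 inhibitor that raises WNT signalling, and 1.5 mM valproic acid, a histone deacetylase inhibitor (3 lines for RNA-seq and 3 for Ribo-seq). The mice carried Lgr5Cre.ERT2.RPL22.HA (WT, n = 3) or Lgr5Cre.ERT2.Rptor.fl/fl.RPL22.HA (Rptor fl/fl, n = 3), in which Cre is driven from the stem cell gene *Lgr5*. Rptor encodes Raptor, the subunit that brings substrates to the amino acid-sensing kinase complex mTORC1. Both Cre lines need tamoxifen to act; the labels call the WT and Rptor fl/fl samples untreated, while the study's methods describe induction with tamoxifen. For Ribo-seq, translation was stopped with cycloheximide, given to living organoids before lysis and to mouse intestine in the flushing solution before freezing, and ribosomes were pulled down by the HA tag.

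Cells take up amino acids through families of carriers that differ in substrate and in driving force. Several light chains of the Slc7 family reach the plasma membrane only when joined to a common heavy chain, and they exchange one amino acid for another across it. *Slc1a4* and *Slc1a5* of the Slc1 family and several carriers of the Slc38 family move small neutral amino acids, glutamine among them, with sodium. The uptake of leucine and arginine feeds mTORC1, and a shortage of amino acids raises translation of the transcription factor ATF4, which is known to induce many transporter genes. In the small intestine, absorptive cells carry further transporters in their brush border for amino acids from the diet.

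By role, the heavy chain is *Slc3a2* (CD98), on chr19:8706882-8723369 (minus strand). Its light chains are *Slc7a5* (LAT1; chr8:121881150-121907694, minus), which carries leucine and other large neutral amino acids, *Slc7a6* (chr8:106168857-106198706, plus), which exchanges arginine for neutral amino acids, and *Slc7a11* (xCT; chr3:49892526-50443614, minus), which imports cystine for glutathione synthesis in exchange for glutamate. *Slc7a1* (chr5:148327410-148399904, minus) takes up arginine and lysine without a heavy chain. *Slc1a4* (chr11:20302180-20332713, minus) carries alanine, serine and cysteine, and *Slc1a5* (chr7:16781340-16798274, plus) carries glutamine. *Slc38a1* (chr15:96571418-96642913, minus) and *Slc38a2* (chr15:96687392-96699730, minus) lie side by side and take up glutamine and alanine. *Slc6a19* (chr13:73679745-73704865, minus) encodes the main sodium-coupled neutral amino acid transporter of the brush border. Positions are of the mm10 build and span each whole gene.

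Depth after summing technical libraries ran from 27439459 to 67598878 reads on genes in RNA-seq, from 1106178 to 8257457 footprints in organoids and from 772077 to 8238388 in mice. In RNA-seq, *Rptor* was at 51.5 and 47.9 CPM in WT lines and at 14.8 and 15.5 CPM in Rptor fl/fl lines (log2 change -1.71, adjusted p = 0.00521), where CPM is the count per 1000000 reads after TMM scaling. In organoid Ribo-seq the libraries labelled Rptor fl/fl held 16.0 to 18.7 CPM of *Rptor* footprints and the SCe libraries 15.2, 41.9 and 21.0 CPM, a difference that did not pass the test (log2 -0.53, adjusted p = 0.317). In mice, *Rptor* footprints were at 39.7 to 44.7 CPM in WT and 32.6 to 36.9 CPM in Rptor fl/fl (log2 -0.28, adjusted p = 0.15). All 7 stem cell markers listed had reads in each sample. In sum they were at 619 to 651 CPM in WT and 388 to 596 CPM in Rptor fl/fl mouse pulldowns, with *Lgr5* at 6.32 to 45.8 CPM. The mouse pulldowns also held enterocyte markers at 64967 to 75729 CPM in sum, and goblet, immune, smooth muscle, stromal and pancreatic acinar markers. Markers of other cell types were thus present beside those of stem cells. SCe line 1 of the RNA-seq stood apart, with a summed enterocyte level of 1005 CPM against 7657 and 8741 CPM in SCe lines 2 and 3.

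Levels of different genes are compared here per length (reads per kilobase, scaled to 1 common total in each library). In WT organoids *Slc3a2* mRNA was highest (129 ± 14.1, SD, n = 2 lines), followed by *Slc38a2* (110 ± 6.29) and *Slc1a5* (87.5 ± 10.03), with no overlap between neighbours. *Slc38a1*, *Slc1a4*, *Slc7a1* and *Slc7a5* followed at mean levels of 60.7 to 40.7, each overlapping its neighbour in this group of 4, and then came *Slc6a19* (33.3), *Slc7a6* (23.9) and *Slc7a11* (15.6). The high carriers in the organoids were thus those of glutamine and the heavy chain, with the cystine carrier lowest.

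In Rptor fl/fl organoids the per-length mRNA levels of *Slc38a2* (118), *Slc1a5* (103) and *Slc3a2* (102) were the 3 highest, and *Slc6a19* (3.57) and *Slc7a11* (2.61) the lowest with overlapping ranges. In SCe organoids *Slc3a2* (157) and *Slc1a5* (149) came first with overlapping ranges, *Slc7a11* stood at 37.4 between *Slc7a1* and *Slc7a6*, and *Slc6a19* was last (5.05). The 3 light chains *Slc7a5*, *Slc7a6* and *Slc7a11* added up to 0.624 and 0.623 of the *Slc3a2* mRNA level in WT lines, to 0.636 and 0.566 in Rptor fl/fl lines and to 0.899, 0.893 and 0.922 in SCe lines. The SCe lines were thus the only group of the 3 in which this ratio lay above that of the WT lines in each line.

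Footprints in the mice were spread over the 10 genes in another way. *Slc6a19* (463 ± 13.7 in WT and 615 ± 32.8 in Rptor fl/fl, per length, SD, n = 3 mice) and *Slc3a2* (408 ± 21.1 and 322 ± 23.0) led, with *Slc38a2* next at 46.1 and 52.4. *Slc6a19* made up 45.8% to 46.3% of the summed per-length footprint level of the 10 genes in WT mice and 54.7% to 58.5% in Rptor fl/fl mice. Its share of organoid footprints was 2.85% to 4.11% in libraries labelled Rptor fl/fl and 0.139% to 1.33% in SCe libraries. In another assay, its share of the summed mRNA level was 4.91% and 6.33% in WT organoids. The mouse reference joined leaders to coding sequences, unlike that of the organoids. *Slc7a11* was lowest, with 0 to 10 footprints in a WT mouse and 12 to 21 in an Rptor fl/fl mouse. The light chains *Slc7a5*, *Slc7a6* and *Slc7a11* together were at 0.0154 to 0.0574 of the *Slc3a2* footprint level. Slc7 genes outside the 10 were not in this sum, so it does not cover all possible light chains. Of those, *Slc7a8* was at 292 to 350 CPM in WT and 249 to 265 CPM in Rptor fl/fl mice. *Slc7a5* was at 6.32 to 10.6 CPM and 5.94 to 14.5 CPM.

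**Figure D1:**
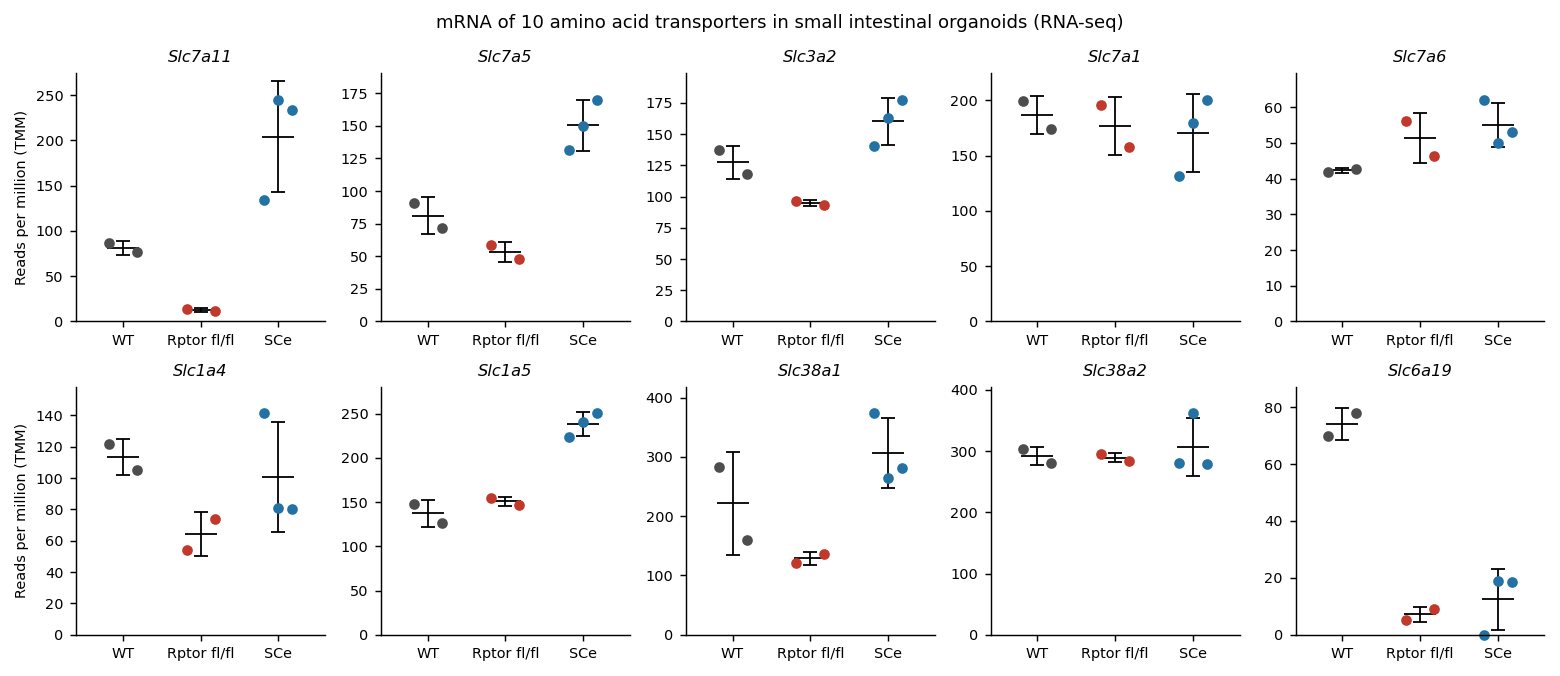
The mRNA level of each of the 10 genes (y axis, CPM after TMM scaling, from 0) in WT (grey), Rptor fl/fl (red) and SCe (blue) organoids. Each point is 1 organoid line, the long bar is the group mean and the whiskers the SD; *Slc7a11* and *Slc6a19* of the Rptor fl/fl lines lie far under the WT lines, and *Slc6a19* of SCe line 1 lies at 0.0334 CPM.

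The comparison of Rptor fl/fl with WT organoids asks how transporter mRNA differs between lines labelled with and without the Rptor deletion. By label the WT lines also carried RPL22.HA and these Rptor fl/fl lines did not. Loss of Raptor and lack of the tag thus cannot be told apart here. Of the 10 genes 4 were lower and none higher in edgeR's quasi-likelihood test, with Benjamini-Hochberg adjusted p under 0.05 over 14131 genes; of all genes tested, 11.0% were lower and 11.6% higher. The median log2 change was -0.52 over the 10 genes and -0.0049 over all genes. At an unadjusted p under 0.05, no gene of the 10 was higher either; DESeq2 also called none higher. *Slc7a6* was called higher in 2 alternatives, without Rptor fl/fl line 2 (log2 change 0.43) and with technical libraries as replicates (0.28).

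*Slc6a19* fell most on the log2 scale. The WT lines held 70.0 and 77.9 CPM and the Rptor fl/fl lines 5.23 and 9.10 CPM, 10.3-fold lower (log2 change -3.36, SE 0.28, adjusted p = 0.00979). The groups lay far apart. The summed level of 11 enterocyte markers overlapped between the groups: it was 8669 and 9311 CPM in WT and 7109 and 10675 CPM in Rptor fl/fl lines, and *Slc6a19* was 0.808% and 0.837% of that sum in WT lines and 0.0735% and 0.0852% in Rptor fl/fl lines. Taken gene by gene, 2 of these 11 markers were called lower and none higher in edgeR's test, with a median log2 change of -0.45; DESeq2 called 3 lower and 1 higher, and 4 were lower and 1 higher at an unadjusted p under 0.05. Their part in the fall of *Slc6a19* was not tested.

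For *Slc7a11* the WT lines held 87.1 and 76.2 CPM and the Rptor fl/fl lines 14.1 and 11.2 CPM, 6.45-fold lower (log2 change -2.69, SE 0.14, adjusted p = 0.00567). This was called in each of the 11 alternative fits run. Its promoter is shown because 2 of the 4 genes that fell, *Slc7a11* and *Slc1a4*, hold the core of the C/EBP-ATF response element, the sequence that ATF4 and its partners are known to bind. The motif searched was TGATGNAA on either strand (TTNCATCA when read from the other), in RefSeq windows from 250 bases before to 50 bases after each start in the GRCm38.p6 assembly. Capitals mark the motif; both windows are written 5′ to 3′ in the direction of the gene.

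Slc7a11, chr3:50443652-50443680, minus strand: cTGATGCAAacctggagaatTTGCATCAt

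Slc1a4, chr11:20332699-20332728, minus strand: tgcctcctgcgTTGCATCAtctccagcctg

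In *Slc7a11* the 2 matches begin 66 and 47 bases before the start and face each other; in *Slc1a4* the match begins 4 bases before it. Windows were given for 7 of the 10 genes, and those of *Slc3a2*, *Slc7a1*, *Slc7a6*, *Slc38a2* and *Slc6a19* did not hold these letters; *Slc7a5*, *Slc1a5* and *Slc38a1* were not searched. Of 32851 promoter windows of all genes, 3.97% held the motif, and 23 windows held it more than once. A match is only a run of letters, and binding was not measured.

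*Slc1a4* was at 122 and 105 CPM in WT lines and 54.1 and 74.1 CPM in Rptor fl/fl lines (log2 change -0.82, SE 0.17, adjusted p = 0.0332). *Slc3a2* was at 137 and 118 CPM in WT lines and 96.3 and 93.1 CPM in Rptor fl/fl lines (log2 change -0.43, SE 0.09, adjusted p = 0.032). In both genes every Rptor fl/fl line was under both WT lines, but neither passed the test without WT line 1 or without Rptor fl/fl line 1, nor did *Slc1a4* without WT line 2 and *Slc3a2* without Rptor fl/fl line 2 or with an offset for effective length. In a fit of all 3 RNA-seq groups *Slc7a11* alone of the 10 was called, and *Slc6a19*, *Slc1a4* and *Slc3a2* were not, at log2 changes of -3.37, -0.82 and -0.43. The carrier of leucine, *Slc7a5*, lay just outside the threshold: it was at 91.1 and 71.4 CPM in WT and 58.4 and 47.6 CPM in Rptor fl/fl lines (log2 change -0.62, SE 0.16, adjusted p = 0.0516), and it passed in 5 of the 11 alternatives.

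*Slc38a1* was at 283 and 160 CPM in the WT organoids, which differed more from each other than the Rptor fl/fl lines (121 and 136 CPM) did (log2 change -0.78, SE 0.28, adjusted p = 0.106). It was called lower without WT line 2 (-1.13) and with technical libraries as replicates (-0.78), and was at -0.32 and not called without WT line 1. The arginine carrier *Slc7a1* (log2 -0.08), the glutamine carrier *Slc1a5* (0.14), *Slc38a2* (-0.01) and *Slc7a6* (0.28) had adjusted p-values of 0.127 to 0.904. For *Slc38a2* the 95% interval of the log2 change was -0.20 to 0.17, and for *Slc1a5* -0.10 to 0.38. Thus the 2 genes that fell more than 6-fold were the cystine carrier and the brush border carrier, while the intervals of these glutamine carriers lay within a log2 change of 0.4.

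Other cell markers moved along with these genes. Summed stem cell markers were at 3871 and 5466 CPM in WT lines and 970 and 2239 CPM in Rptor fl/fl lines, Paneth cell markers at 4986 to 6196 CPM and 884 to 1851 CPM, and goblet cell markers at 1567 to 1669 CPM and 2836 to 3900 CPM. Their part in the fall of the transporters was not tested. In such bulk samples fewer cells of a type and less RNA per cell cannot be told apart.

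The other transporters and the amino acid response were read from lists chosen with results of these data known, so their counts are a description. Of 49 other amino acid and peptide transporters 35 were tested, 1 was higher and 6 were lower, with a median log2 change of 0.03. The higher one was *Ctns*, the lysosomal cystine exporter (log2 0.73, adjusted p = 0.0174), and the 3 lower ones with the smallest p were the glycine carrier *Slc6a9* (-0.97), *Slc7a15* (-2.32) and the peptide carrier *Slc15a1* (-1.14). Of 18 amino acid response genes tested, 12 were lower and none higher, with a median of -1.10; an unadjusted p under 0.05 was not reached in the higher direction either. *Ddit4*, an inhibitor of mTORC1 (-1.73), *Psph*, the last enzyme of serine synthesis (-1.69), and *Atf5*, an ATF4 target (-1.21), led this list.

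The comparison of Rptor fl/fl with SCe organoids sets lines labelled Rptor fl/fl against cultures labelled stem cell enriched. Only the SCe organoids had CHIR99021 and valproic acid, so genotype and medium cannot be told apart. This holds for the footprint and translation efficiency comparisons below as well. In mRNA the RPL22.HA tag also differed by label, since the SCe lines carried it. The summed level of the 7 stem cell markers listed was lower in SCe than in WT lines, at 1011 to 1914 CPM against 3871 to 5466 CPM. *Olfm4* was at 42.2 to 135 CPM against 2864 and 4433 CPM in WT, while *Lgr5* was at 219 to 337 CPM against 215 and 197 CPM. In edgeR's test 3 of these markers were lower in SCe than in WT and none higher (1 higher at an unadjusted p under 0.05 and in DESeq2). Of the 10 genes 5 were lower and none higher in edgeR's test over 15103 genes, of which 21.8% were lower and 21.0% higher; at an unadjusted p under 0.05 and in DESeq2 none of the 10 was higher. The same Rptor fl/fl libraries enter this comparison and the one with WT. The median log2 change was -0.71 over the 10 genes and -0.01 over all genes.

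*Slc7a11* was at 134, 245 and 234 CPM in the SCe lines against 14.1 and 11.2 CPM, 16.1-fold lower in Rptor fl/fl (log2 change -4.01, SE 0.34, adjusted p = 0.00179). *Slc7a5* was at 131, 150 and 170 CPM in SCe lines against 58.4 and 47.6 CPM (log2 change -1.50, SE 0.16, adjusted p = 0.00255). *Slc38a1* was at 374, 265 and 282 CPM in SCe lines against 121 and 136 CPM (log2 change -1.25, SE 0.18, adjusted p = 0.00581). In these 3 genes no Rptor fl/fl line reached the lowest SCe line. *Slc3a2* (log2 change -0.76, adjusted p = 0.00704) and *Slc1a5* (-0.66, adjusted p = 0.00439) were lower by a smaller amount. Without Rptor fl/fl line 1 the calls of *Slc3a2* (-0.78) and *Slc38a1* (-1.16) were lost, and without line 2 that of *Slc3a2* (-0.73). The other 5 genes were not called, with log2 changes of -0.80 to 0.05; *Slc7a1* (0.05) turned to -0.04 under upper quartile scaling.

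*Slc6a19* differed among the SCe lines themselves. Line 1 held 1 read on the gene, while lines 2 and 3 were at 18.7 and 18.4 CPM, so that its change against Rptor fl/fl had a 95% interval of -4.73 to 3.14 (log2 change -0.80, adjusted p = 0.709). Without SCe line 1 it was called lower in Rptor fl/fl organoids (log2 change -1.37). In the same line the enterocyte sum was low as given above; its part in the low *Slc6a19* was not tested. Of other cell markers, all 6 of goblet cells (median log2 change 3.65) and 3 of 4 of tuft cells were called higher in Rptor fl/fl than in SCe organoids, and the 3 of 6 stromal markers that were tested were lower (median -5.03); their part in the transporter differences was not tested. Of the other transporters, 3 were higher and 10 lower of 39 tested, and of the amino acid response 2 were higher and 8 lower of 18. The leading lower transporter was the glutamate carrier *Slc1a1* (log2 -2.23, adjusted p = 0.000976), and the leading lower response genes were the serine synthesis enzymes *Phgdh* (-1.41) and *Psat1* (-2.35).

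SCe against WT organoids shows what the enrichment medium goes with in cells that keep Raptor. Of the 10 genes 4 were higher and none lower in edgeR's test over 14925 genes, of which 22.4% were higher and 19.9% lower. No gene of the 10 was lower at an unadjusted p under 0.05 or in DESeq2. Upper quartile scaling moved the median of all genes by 0.11 and the share of calls that were higher to 63.7% from 53.0%; under it *Slc3a2* was called as well. The WT libraries are those of the first comparison and the SCe libraries those of the second.

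For *Slc1a5* the WT lines held 148 and 127 CPM and the SCe lines 224, 241 and 251 CPM (log2 change 0.82, SE 0.10, adjusted p = 0.00446), and it was called under each alternative run. *Slc7a5* rose by a log2 change of 0.91 (SE 0.16, adjusted p = 0.0111), from 91.1 and 71.4 CPM in WT lines to 131 to 170 CPM. *Slc7a11* rose by 1.35 (SE 0.29, adjusted p = 0.02), and SCe line 1 was the lowest of the 3 and still above both WT lines. The WT lines held 41.9 and 42.7 CPM of *Slc7a6* and the SCe lines 62.1, 50.0 and 53.0 CPM (log2 change 0.40, SE 0.11, adjusted p = 0.0372). With 1 line left out, log2 changes ran from 1.19 to 1.57 for *Slc7a11*, 0.30 to 0.46 for *Slc7a6* and 0.73 to 1.08 for *Slc7a5*. The call of *Slc7a11* was still lost without SCe line 2 (1.19) or 3 (1.24). That of *Slc7a6* was lost without SCe line 3 (0.43) and with the length offset (0.41). With WT line 1 or 2 left out, 1 WT line remained, and the calls of *Slc7a11* (1.43 or 1.24) and *Slc7a6* (0.37 or 0.40) were lost. The call of *Slc7a5* (0.73) was lost without WT line 2. *Slc1a5* alone was then left without WT line 2. The heavy chain *Slc3a2* was at 137 and 118 CPM in WT and 141 to 178 CPM in SCe lines (log2 change 0.35, adjusted p = 0.0835).

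*Slc6a19* stood at 0.0334, 18.7 and 18.4 CPM in the SCe lines against 70.0 and 77.9 CPM in WT, each below both WT lines (log2 change -2.53, SE 1.35, adjusted p = 0.187); it was called lower without SCe line 1 (log2 change -1.97). *Slc1a4* was called lower (log2 change -0.48) and *Slc3a2* higher without that line too, which brought the count to 7 of 10. Summed goblet markers were at 244 to 428 CPM in SCe against 1567 to 1669 CPM in WT lines, and stromal markers at 69.8 to 115 CPM against 2.34 to 3.43 CPM; their part in these differences was not tested. Of the other transporters, 10 were higher and 4 lower of 38 tested, led by *Slc1a1* (log2 2.07, adjusted p = 0.00188). The amino acid response list had 2 higher (*Phgdh*, 0.68, and *Psat1*, 1.05) and 6 lower genes of 18, among them *Chac1*, which degrades glutathione (-2.91), the hormone gene *Stc2* (-2.27) and *Atf4* itself (-0.84).

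**Figure D2:**
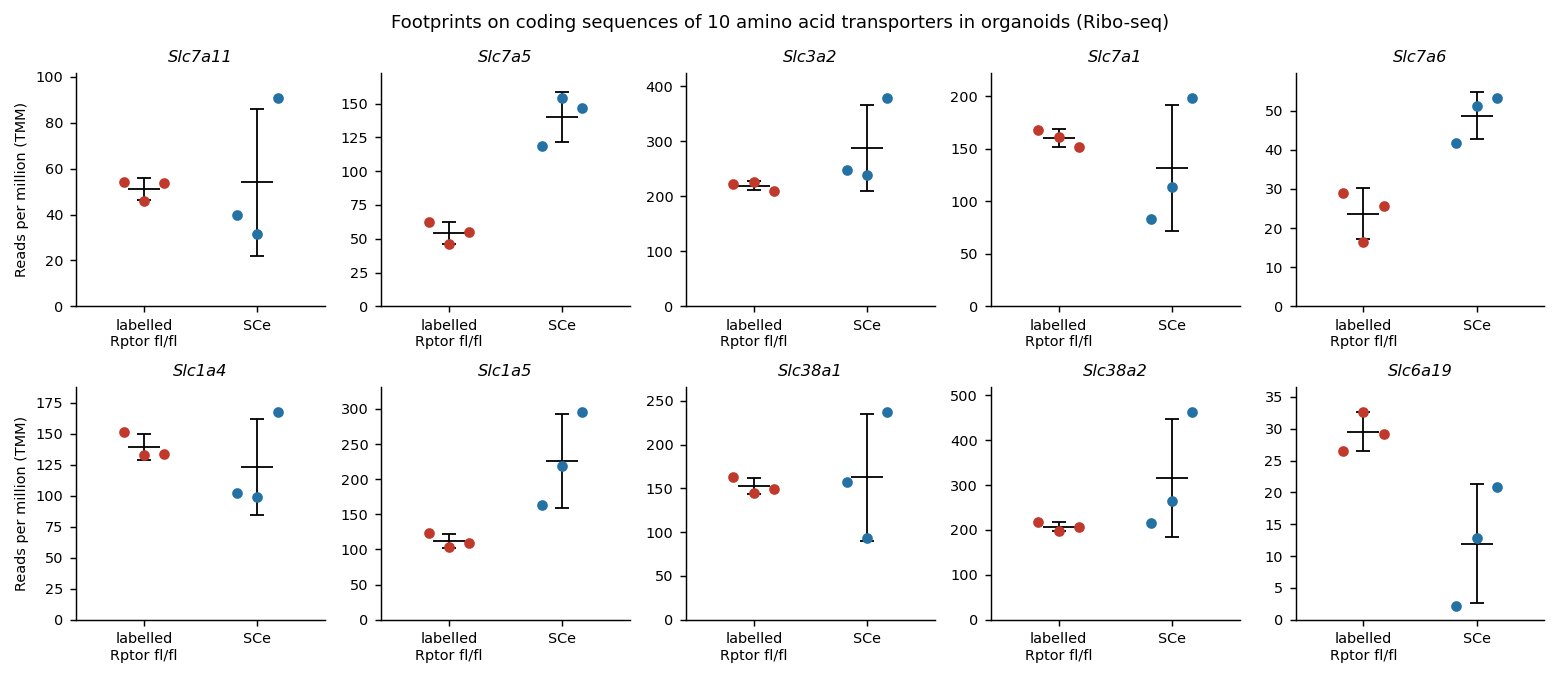
Footprints on the coding sequence of each gene (y axis, CPM after TMM scaling, from 0) in the libraries labelled Rptor fl/fl (red) and in SCe libraries (blue) from organoids. Points are single lines, the long bar is the mean and the whiskers the SD; *Slc7a5*, *Slc7a6* and *Slc1a5* are lower in each library labelled Rptor fl/fl than in any SCe library.

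Footprints on coding sequences count ribosomes on a gene's mRNA, and so move with both the amount of that mRNA and its ribosome load. Of the 10 genes 3 were lower and none higher in the libraries labelled Rptor fl/fl than in SCe libraries, in edgeR's test over 10817 genes of which 9.84% were lower and 6.64% higher. At an unadjusted p under 0.05 *Slc6a19* alone was higher, and DESeq2 called none of the 10 higher. The median log2 change was -0.26 over the 10 genes and -0.02 over all genes.

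*Slc7a5* was at 62.2, 46.1 and 54.8 CPM in the libraries labelled Rptor fl/fl and at 119, 154 and 147 CPM in SCe libraries, 2.57-fold lower (log2 change -1.36, SE 0.19, adjusted p = 0.00275), and was called in each alternative. *Slc7a6* was at 28.9, 16.4 and 25.7 CPM against 41.8, 51.3 and 53.2 CPM (log2 change -1.04, SE 0.25, adjusted p = 0.0232). *Slc1a5* was at 123, 104 and 109 CPM against 163, 219 and 296 CPM (log2 change -1.02, SE 0.23, adjusted p = 0.0182). In all 3 the groups did not overlap, but an offset for effective length ended the calls of *Slc7a6* (-1.39) and *Slc1a5* (-1.05). So did leaving out 1 library: line 1, 2 or 3 of those labelled Rptor fl/fl for *Slc1a5* (-1.09, -0.95 and -0.99), and line 2 (-0.83) or 3 (-1.10) of those or SCe line 2 (-1.01) for *Slc7a6*. So the leucine carrier was lower in both mRNA and footprints.

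*Slc7a11* footprints moved apart from its mRNA. They were at 54.2, 45.7 and 53.7 CPM in the libraries labelled Rptor fl/fl and at 39.6, 31.7 and 90.7 CPM in SCe libraries (log2 change -0.13, 95% interval -0.92 to 0.66, adjusted p = 0.832). *Slc6a19* was at 26.6, 32.7 and 29.2 CPM against 2.17, 12.8 and 20.8 CPM, higher in each library labelled Rptor fl/fl (log2 change 1.20, SE 0.50, adjusted p = 0.136). *Slc38a2* was at 197 to 218 CPM against 216 to 464 CPM (log2 change -0.61, adjusted p = 0.159), with SCe library 3 far above the others. Without SCe library 3 *Slc6a19* (2.17) and *Slc7a1* (0.72) were called higher, and without SCe library 1 *Slc38a2* (-0.83) was called lower. For *Slc3a2* (log2 -0.40), *Slc7a1* (0.27), *Slc1a4* (0.17) and *Slc38a1* (-0.11) the adjusted p-values were 0.224 to 0.829. *Slc3a2* footprints were divided among 6 of the 8 coding sequences listed for this gene, and its change turned to 0.16 with the length offset.

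Summed enterocyte markers were at 10278 to 10725 CPM in the libraries labelled Rptor fl/fl and at 2105 to 5305 CPM in SCe libraries, and stromal markers at 5.72 to 9.80 CPM and 143 to 810 CPM. The part of either in the footprint differences was not tested. Of the other transporters 2 were higher, the brush border carriers *Slc15a1* (log2 2.75) and *Slc7a9* (2.70), and 4 were lower of 21 tested. Of 18 amino acid response genes 4 were higher and none lower in edgeR's test (none lower at an unadjusted p under 0.05 or in DESeq2 either), led by *Chac1* (1.94), *Atf4* (1.49) and the pseudokinase gene *Trib3* (1.33).

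Translation efficiency, the footprint change less the mRNA change, was tested as the interaction of assay and group in 1 model over 10747 genes. Of the 10 genes 1 was higher and none lower; of all genes tested, 1.13% were higher and 1.83% lower. Over all genes 38.1% of the calls were in the higher direction, and 52.6% with the length offset. *Slc7a6* reached an unadjusted p under 0.05 in the lower direction, and DESeq2 called it lower. *Slc7a11* was the gene that differed: its log2 change was -4.01 in mRNA and -0.13 in footprints, and the difference between them was 3.93 (SE 0.54, 95% interval 2.74 to 5.12, adjusted p = 0.00771).

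The Rptor fl/fl lines behind the mRNA and those behind the footprints were not shown to be the same, and the footprint libraries labelled Rptor fl/fl lay nearer to WT mRNA than to Rptor fl/fl mRNA in stem cell and Paneth markers. Summed stem cell markers were at 5279 to 5632 CPM in those libraries. In mRNA they were at 3871 to 5466 CPM in WT and 970 to 2239 CPM in Rptor fl/fl lines. Paneth markers were at 6268 to 9329 CPM against 4986 to 6196 CPM and 884 to 1851 CPM. The footprint reference held only 6 of the 7 Paneth genes summed in mRNA. *Lgr5* was at 206 to 212 CPM in the libraries labelled Rptor fl/fl. In mRNA it was at 215 and 197 CPM in WT and 44.4 and 73.9 CPM in Rptor fl/fl lines. Goblet markers, at 2851 to 4505 CPM, lay instead near the Rptor fl/fl mRNA sums given above. These are values of different assays set side by side, with no WT organoid footprints analysed here. In SCe organoids, measured in both assays, stem cell markers were at 1011 to 1914 CPM in mRNA and 1759 to 3341 CPM in footprints. Paneth markers were at 923 to 4096 and 3409 to 5939 CPM there, and goblet markers at 244 to 428 and 1080 to 1483 CPM. *Lgr5* was at 219 to 337 and 378 to 640 CPM. In the libraries labelled Rptor fl/fl, *Olfm4* alone gave 4322 to 4675 CPM of the stem cell sum. Whether the difference for *Slc7a11* comes from translation or from the lines cannot be told apart. *Rptor* itself moved apart in the same way: its log2 change was -1.89 in mRNA and -0.53 in footprints (difference 1.43, adjusted p = 0.0777). The call of *Slc7a11* was lost without Rptor fl/fl line 1 of the RNA-seq (log2 4.11). *Slc38a1* (log2 1.19, SE 0.40, adjusted p = 0.133) and *Slc7a6* (-0.89, SE 0.30, adjusted p = 0.127) were called by DESeq2, and *Slc38a1* also without SCe library 3 of the Ribo-seq (1.58). *Slc7a5* had a difference of 0.20 with an interval of -0.34 to 0.74. Of the amino acid response list 6 of 18 were higher, led by *Trib3* (2.62), *Psph* (2.39) and *Psat1* (2.08), and of 21 other transporters *Slc1a1* alone was called (1.42).

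**Figure D3:**
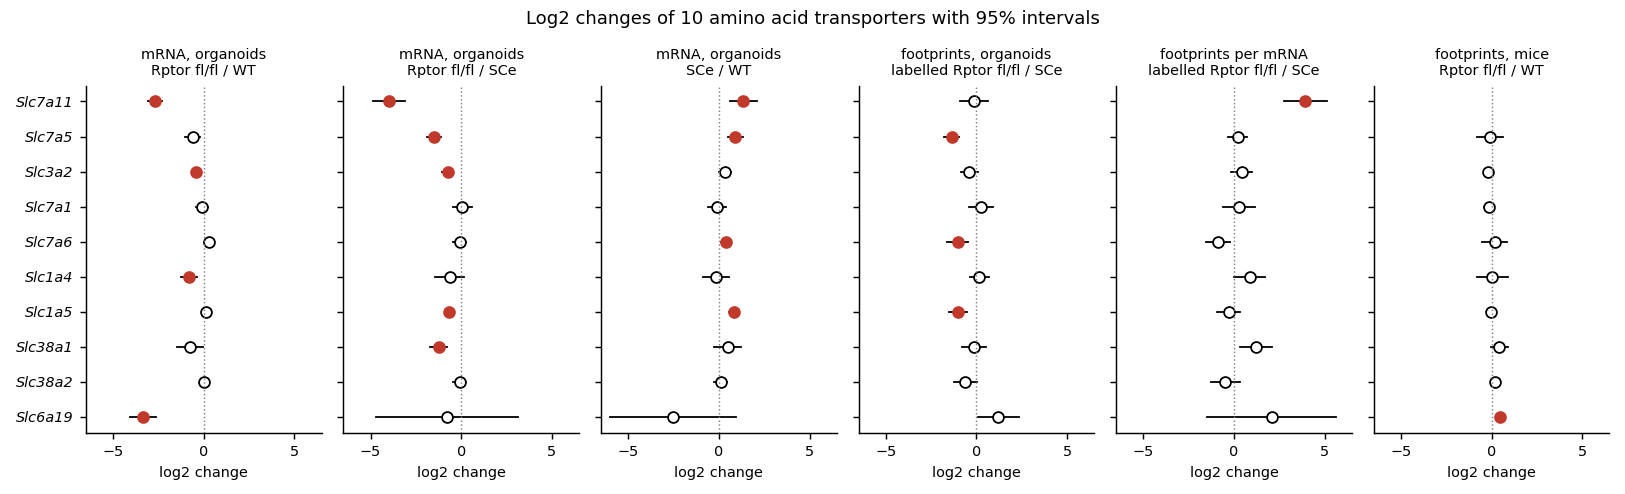
Log2 changes of the 10 genes (rows) in the 6 comparisons (panels; x axis in log2 units), with 95% intervals as lines. Red points passed an adjusted p of 0.05 in edgeR and open points did not; *Slc7a11* lies left of 0 in both Rptor fl/fl comparisons of mRNA, near 0 in footprints and right of 0 in footprints per mRNA, and was not tested in mice.

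**Figure D4:**
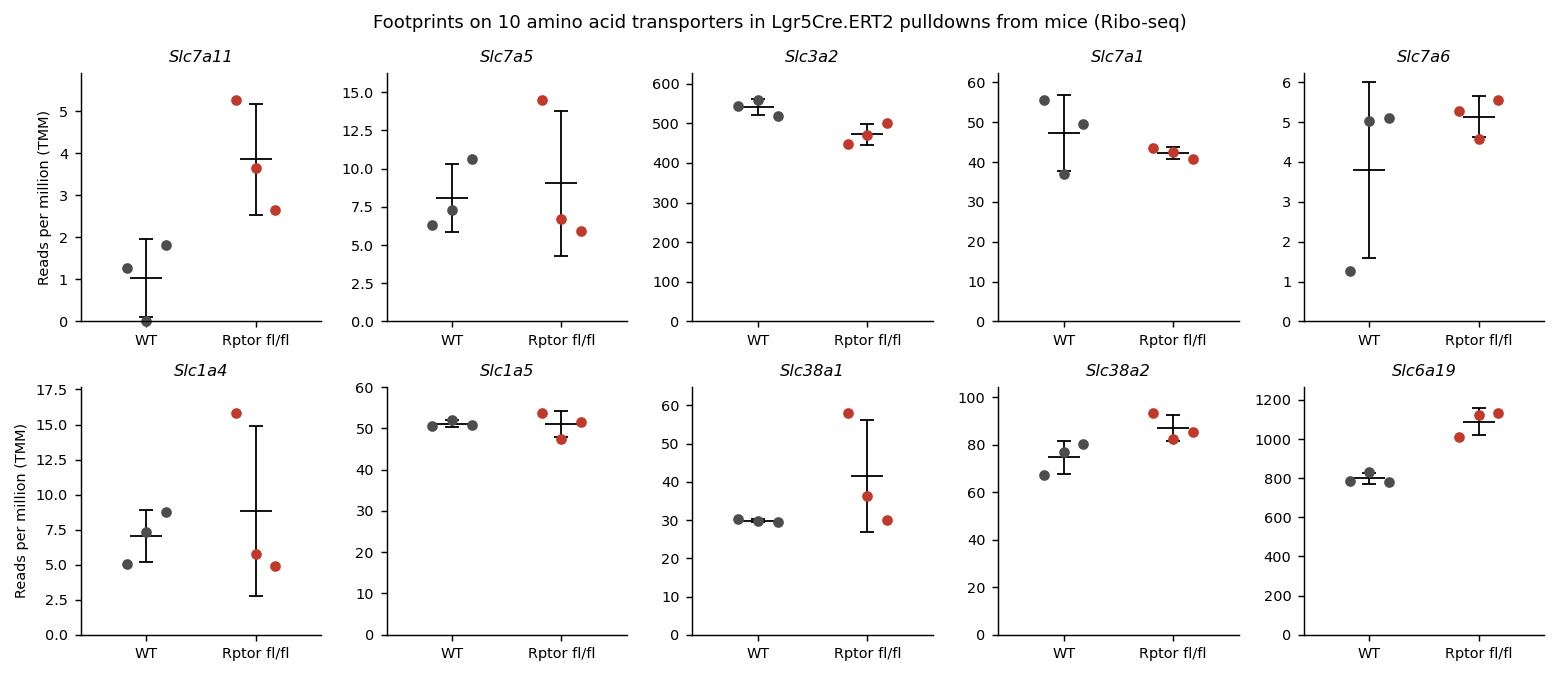
Footprints on the 10 genes in mouse pulldowns (y axis, CPM after TMM scaling, from 0) in WT (grey) and Rptor fl/fl (red) mice. Points are single mice, the long bar is the mean and the whiskers the SD; *Slc6a19* is higher in each Rptor fl/fl mouse than in any WT mouse.

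In mice the comparison asks what Rptor deletion driven from *Lgr5* goes with in HA pulldowns from the small intestine. These pulldowns also held markers of other cell types, as given above, so their footprints are not those of stem cells alone. Of the 10 genes 9 passed the count filter, 1 was higher and none lower in edgeR's test over 11515 genes, of which 7.46% were higher and 5.97% lower. *Slc3a2* reached an unadjusted p under 0.05 in the lower direction, and DESeq2 called none lower. *Slc6a19* was at 785, 831 and 779 CPM in WT and at 1009, 1122 and 1132 CPM in Rptor fl/fl mice, 1.36-fold higher (log2 change 0.45, SE 0.07, adjusted p = 0.000594). The call held in each of the 11 alternatives.

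The summed enterocyte level was also higher, at 64967 to 66830.1 CPM in WT and 69774 to 75729 CPM in Rptor fl/fl mice. *Slc6a19* was 1.19%, 1.24% and 1.20% of that sum in WT and 1.45%, 1.51% and 1.50% in Rptor fl/fl mice, so it differed on this scale too. Summed stem cell markers were at 619 to 651 CPM in WT and 388 to 596 CPM in Rptor fl/fl mice. Of these 7 markers 3 were called lower and none higher in edgeR's test. Summed Paneth markers were at 9777 to 10646 CPM and 5353 to 8926 CPM, and erythroid markers at 152 to 178 CPM and 813 to 986 CPM. The part of these cell types was not tested.

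*Slc3a2* was at 545, 559 and 519 CPM in WT and at 447, 470 and 500 CPM in Rptor fl/fl mice, with every Rptor fl/fl mouse below the lowest WT mouse (log2 change -0.19, SE 0.07, adjusted p = 0.0972), and was called lower with the length offset (-0.44). *Slc38a1* was at 29.6 to 30.3 CPM in WT and at 58.0, 36.2 and 30.1 CPM in Rptor fl/fl mice (log2 change 0.43, adjusted p = 0.209), and was called higher without Rptor fl/fl mouse 3 (0.66). Rptor fl/fl mouse 1 had the highest value of its group for *Slc38a1*, *Slc7a5*, *Slc1a4* and *Slc7a11*, and its *Lgr5* was at 45.8 CPM against 6.32 to 11.4 CPM in the other 5 mice. For *Slc1a5* the log2 change was -0.0047 with an interval of -0.24 to 0.23. The remaining genes had adjusted p-values of 0.263 to 0.977.

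*Slc7a5*, *Slc7a6* and *Slc1a4* rested on 1 to 58 footprints per mouse, and their 95% intervals of the log2 change were -0.82 to 0.61, -0.52 to 0.87 and -0.82 to 0.90. Smaller differences were not detectable at this depth. Of 25 other transporters tested, 2 were higher, *Slc6a14* (log2 1.35, adjusted p = 0.000501) and the brush border cystine and dibasic carrier *Slc7a9* (0.43), and 4 were lower, among them *Slc7a8* (-0.32), *Slc7a15* (-0.41) and the lysosomal carrier *Slc36a1* (-0.42). Of 15 amino acid response genes 3 were lower and none higher in edgeR's test (1 was higher at an unadjusted p under 0.05 and none in DESeq2): *Nupr1* (-0.95), *Trib3* (-0.94) and *Pck2* (-0.42).

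The organoid Ribo-seq reference also held the 5′ leaders as separate entries, where footprints mark ribosomes upstream of the coding sequence. These entered no test. The share differed among the genes, with overlapping ranges: *Slc1a5* had 18.3% to 20.0% of its footprints there in the libraries labelled Rptor fl/fl and 14.5% to 21.5% in SCe libraries, and *Slc38a1* had 16.4% to 18.4% and 14.7% to 23.1%. *Slc38a2* had 9.44% to 11.8% in the libraries labelled Rptor fl/fl and 4.97% to 13.1% in SCe libraries, and *Slc1a4* had 7.85% to 13.2% and 1.96% to 19.0%. *Slc7a5* had 0.796% to 1.32% in those libraries and *Slc6a19* 1 footprint on its leader of 607 in all; in SCe libraries *Slc6a19* had 0 of 109, which allows a share of up to 2.75% by counting error alone. The median over genes with at least 100 footprints was 1.59% to 4.77% by library.

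SCe library 1 gave the highest share of its group in the 9 genes with any leader footprint in SCe libraries, from 2.23% for *Slc7a5* to 23.1% for *Slc38a1*; for *Slc7a11* it was 16.1% against 5.08% and 5.13% in the other two. That library also had 6.98% of all its footprints on leaders, against 5.42% and 2.97%. Between the groups the ranges overlapped for all 10 genes. In the mouse reference leader and coding sequence were 1 entry, so this share was not measured there.

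**Figure D5:**
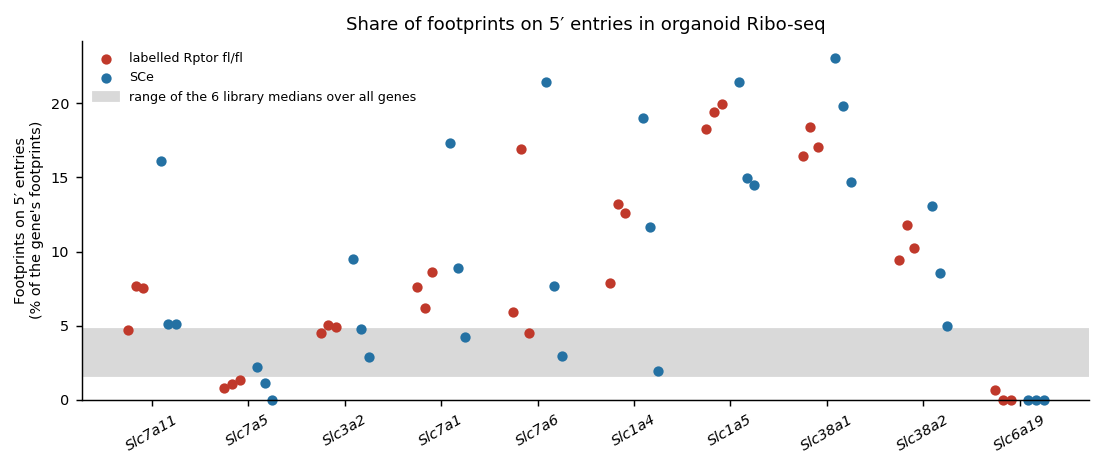
Share of each gene's footprints that lay on its 5′ entry (y axis, percent) in organoid libraries labelled Rptor fl/fl (red) and SCe libraries (blue). Each point is 1 library. The grey band spans the 6 library medians over all genes with at least 100 footprints. *Slc1a5* and *Slc38a1* lie above the band in every library. The points of *Slc6a19* are drawn below it. Those of the SCe libraries rest on 4, 15 and 90 footprints, too few to place the gene below the band.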

How the data were processed

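RNA-seq (TruSeq stranded mRNA) and Ribo-seq were made in the groups described above. The authors deposited, per library, expected counts per transcript (Salmon 1.1.0, GENCODE vM21, mm10), with cutadapt 1.18 named in the submitters' processing notes. The RNA-seq reference held whole transcripts, the organoid Ribo-seq reference coding sequences and separate 5′ entries (name ending in _uORF, left out of every test), and the mouse Ribo-seq reference leaders joined to coding sequences. The deposited lengths in bases (unit other in kind) gave per-length levels, which are the mean over technical libraries of a line. A deposited table that holds only the authors' own comparison was not used, and SCd samples were not analysed here.

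Expected counts were summed per gene over the transcripts and over technical libraries of a line, rounded and tested with edgeR 4.0.16 (filterByExpr, TMM, quasi-likelihood test, Benjamini-Hochberg over all genes tested, threshold 0.05). For translation efficiency the term tested was assay by group, with TMM within each assay. The code was tested on simulated data. Alternatives were DESeq2 1.42.0, upper quartile scaling, no count filter, an effective length offset, a replicate block, leaving out each replicate and, in RNA-seq, technical libraries kept apart or all 3 groups in 1 fit. The 10 genes, the other lists and the comparisons were chosen with earlier results of these data known. All 10 genes were named in each comparison, and from each further list up to 3 called genes per direction with the smallest p. Values of the markers were given beside the results. 1 further listed gene is not reported here. *Cltrn*, listed under its current symbol, was called in 1 comparison (lower in Rptor fl/fl than in SCe organoids, log2 -7.47, adjusted p = 0.0274).

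Whether organoid lines came from separate mice is not given in the sources used here, so their p-values measure the spread between these lines. Replicates of a group differed by more than counting noise, with a chi-square of 1.55 to 192 per degree of freedom over genes with at least 20 reads in a pair. Depth per sample is given above; counts are of reads without molecular identifiers.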

Additional observations from a re-analysis of the deposited data

Results flagged for a closer look

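In organoids, *Slc7a11* differed between footprints and mRNA: its change in the lines labelled Rptor fl/fl against SCe lines was higher in footprints than in mRNA by a log2 value of 3.93, by a test of the interaction itself (edgeR, adjusted p = 0.00771, with 2 and 3 lines in RNA-seq and 3 and 3 in Ribo-seq). The call was lost without Rptor fl/fl line 1 of the RNA-seq (log2 4.11) and with the replicate block (3.92). The footprint libraries labelled Rptor fl/fl held *Lyz1*, a Paneth cell gene, at 1643 to 1967 CPM and *Lgr5* at 206 to 212 CPM, against 103 and 206 CPM and 44.4 and 73.9 CPM in Rptor fl/fl mRNA and 1254 and 1481 CPM and 215 and 197 CPM in WT mRNA. In SCe organoids *Lyz1* was at 212 to 1642 CPM in mRNA and 1110 to 1454 CPM in footprints. *Lgr5* was at 219 to 337 CPM and 378 to 640 CPM there. A difference in translation and a difference between the lines of the 2 assays cannot be told apart. No group was large enough for a test of single samples that lie apart.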

How the results depend on the processing

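Of the calls made on the 10 genes, 177 combinations of a called gene and an alternative kept the direction and the call, 35 kept the direction and lost the call, and none reversed. In mRNA of Rptor fl/fl against WT organoids 4 of the 10 genes were called, 7 with technical libraries as replicates and 1 with all 3 RNA-seq groups in 1 fit. SCe against WT gave 4 called genes and 1 with the replicate block. Organoid footprints gave 3, and 1 with the length offset; mouse footprints gave 1, and 2 with that offset. Translation efficiency gave 1, 3 in DESeq2 and 0 with the replicate block. The cause was not tested, except that leaving out a library leaves fewer samples.

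Leaving out 1 replicate at a time moved the number of called genes from 2 to 5 in Rptor fl/fl against WT mRNA, from 3 to 6 against SCe mRNA, from 1 to 7 in SCe against WT, from 1 to 5 in organoid footprints, from 1 to 2 in mice and from 0 to 2 in translation efficiency. Where an arm was left with 1 sample, that sample was assumed to vary like the other group.

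The genes that changed direction were called in neither fit. In Rptor fl/fl against WT mRNA *Slc38a2* moved to 0.0106 under upper quartile scaling and 0.0023 with the length offset. Against SCe mRNA *Slc7a1* moved to -0.0437 under upper quartile scaling and *Slc6a19* to 1.52 with the replicate block. In organoid footprints *Slc3a2* moved to 0.16 with the length offset and *Slc7a11* to 0.0349 with the block. In mice *Slc7a5* moved to 0.0425 in DESeq2 and 0.0184 with the length offset, *Slc1a5* to 0.0086 without a count filter and *Slc1a4* to -0.20 with the block. With 1 replicate left out, log2 changes crossed 0 for *Slc38a2* (-0.0664 to 0.0375) and *Slc7a1* (-0.24 to 0.0832) in Rptor fl/fl against WT mRNA; for *Slc38a2* (-0.15 to 0.0469), *Slc7a6* (-0.24 to 0.0432) and *Slc7a1* (-0.11 to 0.21) against SCe mRNA; and for *Slc38a2* (-0.0465 to 0.16) and *Slc7a1* (-0.24 to 0.0439) in SCe against WT. They also did for *Slc38a1* (-0.37 to 0.28) and *Slc7a11* (-0.37 to 0.52) in organoid footprints, and for *Slc1a5* (-0.0274 to 0.0422), *Slc1a4* (-0.58 to 0.45) and *Slc7a5* (-0.54 to 0.28) in mice.

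Over all genes, calls in Rptor fl/fl against WT mRNA went from 3195 to 7209 with technical libraries as replicates and 1536 with all 3 groups in 1 fit. With the length offset they went from 1782 to 651 in organoid footprints, from 1546 to 681 in mice and from 318 to 116 in translation efficiency, where DESeq2 called 1206. With 1 replicate left out, calls ran from 940 to 2126 in Rptor fl/fl against WT mRNA, from 2511 to 9101 against SCe mRNA (6453 with all), from 2030 to 9529 in SCe against WT (6307), from 671 to 2683 in organoid footprints, from 897 to 1954 in mice and from 25 to 954 in translation efficiency.

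The labels do not tie the replicate numbers to a shared source. The study's methods mention paired samples, from VillinCre.ERT2.Rptor.fl/fl animals induced in vitro. They do not say which libraries these are. Deviations of same-numbered RNA-seq lines correlated at 0.22 to 0.41 over 2 numbers, and those of organoid Ribo-seq libraries and mice at -0.0540 to 0.0268. Differently numbered RNA-seq lines ran from -0.41 to 0.29, the highest being Rptor fl/fl line 2 with SCe line 3. In a group of 2 lines the deviations mirror each other, so their correlations are not separate values. The replicate block raised the calls over all genes to 4752 from 3195 in Rptor fl/fl against WT mRNA. It lowered them to 3512 from 6453 in Rptor fl/fl against SCe mRNA and to 3075 from 6307 in SCe against WT. It also lowered them to 1228 from 1782 in organoid footprints, to 1306 from 1546 in mice and to 4 from 318 in translation efficiency. Among the 10 genes it ended the calls of *Slc7a11*, *Slc7a5* and *Slc7a6* in SCe against WT and of *Slc7a11* in translation efficiency, and it added *Slc7a5* in Rptor fl/fl against WT mRNA. The pairing was not shown, so these fits are given as values only.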
